A study of Drosophila melanogaster with 9 samples.

Results

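The genes described here are 38 listed Drosophila melanogaster genes that drive DNA replication, the endocycles of ovarian nurse and follicle cells, and the amplification of the chorion genes. They were chosen by name, as origin, helicase, cyclin, E2F and Myb complex and underreplication genes, and were looked up by symbol or synonym among the gene identifiers of all 9 count files; lat was assigned by hand to Orc3. Of the 38, 36 were matched among the 17559 genes in the files, and 34 passed the filter on low counts that left 8427 tested genes. Orc1 and Mcm3 matched no identifier and were not analysed here. The listed names lat, dpa and CDC45L are synonyms of Orc3, Mcm4 and Cdc45; dpa is kept for Mcm4 below.

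RNA was sequenced from ovaries of 3 groups of flies with 3 libraries each: flies mutant for DPLG1 (titled 22, 5 and 7), flies mutant for DPLG4 (titled 15, 3 and 7) and control flies of the w1118 strain (titled 1, 2 and 3). All flies were kept at 25 °C on standard medium, and the design text calls the libraries of a group biological replicates. DPLG1 (CG12253) and DPLG4 (CG7492) belong to the Drosophila PIF-like genes, which descend from the transposases of a DNA transposon family. The sample titles mark both mutants as KO (knockout). The labels do not state how the genes were disrupted, the age of the flies or the genetic background of the mutants. In the libraries of DPLG1 mutants CG12253 had 0, 0 and 1 counts. In those of DPLG4 mutants CG7492 had 1.52 to 1.68 CPM (counts per 1000000 gene counts of a library, on normalised library sizes). Control libraries had 115 to 167 CPM of CG7492. In DPLG1 mutants CG7492 had 71.3, 106 and 95.2 CPM, with every library below every control. CG12253 had 76.8, 63.7 and 58.1 CPM in DPLG4 mutants and 69.4, 59.4 and 54.0 CPM in control flies.

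In each cell cycle the origin recognition complex marks the sites where replication can start, the Mcm helicase is loaded there by Cdt1 (dup in flies), and S phase kinases then start the forks. Nurse cells and follicle cells leave the mitotic cycle and pass through endocycles, rounds of S phase without division, in which cyclin E with Cdk2 drives S phase while the mitotic cyclins and the Cdc25 phosphatase string (stg) are shut down. Late in oogenesis follicle cells stop replicating the genome as a whole and refire the origins at the chorion gene clusters, a step that needs the same replication proteins and is steered by E2F, Rbf and Myb complexes.

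Gene counts per library ranged from 44654859 to 83830254 in DPLG1 mutants, from 51512876 to 95751320 in DPLG4 mutants and from 18078883 to 93767502 in control flies. Reads with no unique alignment were 70.7% of the total in control library 1, against 8.02% in control library 2 and 7.61% in control library 3. Summed CPM of 8 germline markers spanned 2377 to 2920 in DPLG1 mutants, 2542 to 2726 in DPLG4 mutants and 2347 to 2734 in control flies. For 7 follicle cell markers the ranges were 287 to 438 CPM in DPLG1 mutants and 525 to 621 CPM in DPLG4 mutants. In control flies the range was 331 to 564 CPM. Of the 6 tested follicle markers, 2 had positive log2 fold changes in DPLG1 mutants (median -0.12) and 6 in DPLG4 mutants (median 0.64). Over all tested genes 51.6% and 48.9% were positive. Between the mutants 1 of 6 was positive (median -0.76), where 43.6% of all tested genes were. DESeq2 called 1 of the 6 lower there (adjusted p = 0.0317), where it called 1.35% of all tested genes lower. The 8 germline markers had log2 fold changes from -0.093 to 0.79 in DPLG1 mutants and -0.034 to 0.29 in DPLG4 mutants against control flies. At an adjusted p under 0.05 DESeq2 called 2 of them higher in DPLG1 mutants (1.57% of all tested genes) and 0 in DPLG4 mutants. Between the mutants edgeR called 1 higher (adjusted p = 0.0138), where it called 0.629% of all tested genes. Summed neuron markers were at or below 1.35 CPM and testis markers at or below 0.88 CPM in every library, and gut markers spanned 0.095 to 46.5 CPM in DPLG1 mutants, 0.020 to 32.6 CPM in DPLG4 mutants and 0 to 0.086 CPM in control flies. In whole ovaries, fewer cells of a type and less RNA per cell cannot be told apart.

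Levels of different genes were compared per kilobase of exon, as CPM per kb. CycB, the mitotic B-type cyclin, had the highest level, at 1365 ± 179 CPM per kb in DPLG1 mutants, 1474 ± 170 in DPLG4 mutants and 1590 ± 223 in control flies (SD, n = 3 in each group here and below). CycA, the cyclin that partners Cdk1 in G2, followed at 648 ± 47.8, 623 ± 32.7 and 672 ± 50.0 CPM per kb in DPLG1 mutants, DPLG4 mutants and control flies. The next levels in control flies were those of RnrS at 482 ± 43.9, PCNA at 445 ± 14.7, geminin at 343 ± 21.6 and Cdk1 at 315 ± 28.8 CPM per kb. In control flies the SD ranges of RnrS and PCNA overlapped, and so did those of geminin and Cdk1. The same 6 genes had the highest levels in all 3 groups. RnrS is the small subunit of ribonucleotide reductase, PCNA the sliding clamp, geminin the inhibitor of origin licensing and Cdk1 the mitotic kinase.

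At the other end stood mip130, a subunit of the Myb-MuvB complex, at 10.6 ± 2.74 CPM per kb in DPLG1 mutants, 15.1 ± 6.28 in DPLG4 mutants and 21.0 ± 6.43 in control flies. The anaphase-promoting complex activator fzr, which is needed for the switch into the endocycle, was at 19.7 ± 2.01, 23.0 ± 2.16 and 21.5 ± 2.0 CPM per kb in DPLG1 mutants, DPLG4 mutants and control flies. In DPLG4 mutants and control flies the SD ranges of mip130 and fzr overlapped. Mcm7 followed at 30.8 ± 3.22, 30.7 ± 2.30 and 31.8 ± 3.57 CPM per kb in the same order of groups, from 66.4, 80.0 and 80.2 CPM in DPLG1 mutants, 68.7, 79.1 and 77.7 CPM in DPLG4 mutants and 88.1, 73.6 and 72.4 CPM in control flies. This low level stood beside an overlap: the antisense gene asRNA:CR45871, which had 0 counts in every library, covers all but 448 of the 2451 exon bases of Mcm7. Per kilobase of exon that no other gene shares on either strand, Mcm7 was at 169 CPM in DPLG1 mutants, 168 in DPLG4 mutants and 174 in control flies. Its partner subunit Mcm5 was at 169, 157 and 153 CPM. These Mcm7 values assume that counting ignored strand and dropped every read in the shared bases, which the sources do not state. By the same measure Cdk2 in control flies would move from 123 to 219 CPM per kb. Orc3 and SuUR had 0 counts in all 9 libraries, and each has the same span and strand as a gene that was also at 0 throughout, CG34315 and CG45101. A count of 0 allows up to 0.0311 to 0.172 CPM per library (3 counts, counting error only), but reads lying in genes of identical span may be given to neither gene, so these files hold no usable level for Orc3 and SuUR.

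**Figure D1:**
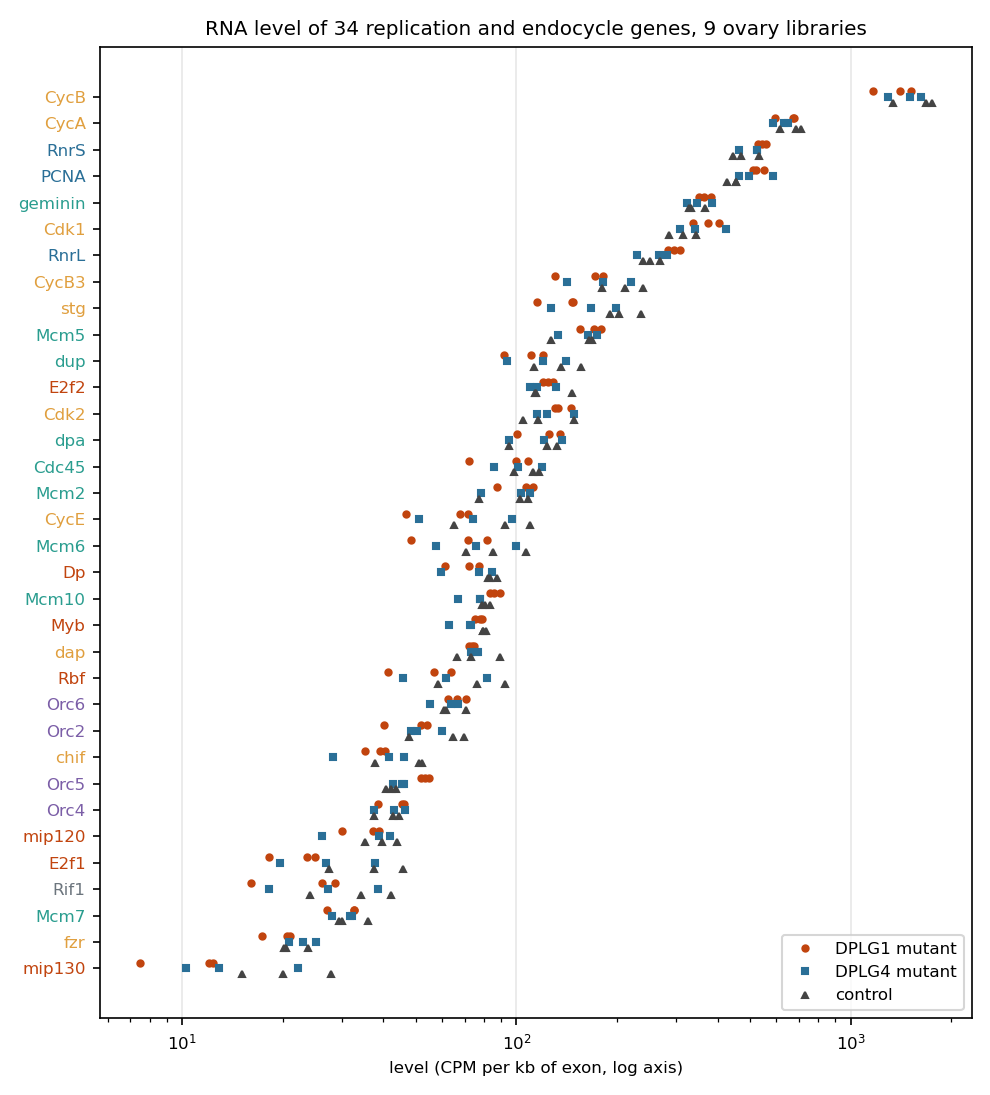
Level of each of the 34 tested genes in CPM per kb of exon (log axis), with a point for each of 3 DPLG1 mutant libraries, 3 DPLG4 mutant libraries and 3 control libraries, ordered by the control mean and with names coloured by role. CycB stands above 1000 CPM per kb in every library. The gene mip130 has the lowest control mean, close to that of fzr. For most genes the points of the 3 groups overlap.

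No gene of the set passed the edgeR quasi-likelihood test at an adjusted p under 0.05 in DPLG1 mutants against control flies, where 9 of 8427 tested genes did (0.107%). The smallest adjusted p among the 34 was 0.240, for Orc5. At an unadjusted p under 0.05 there were 3 higher genes (Orc5, PCNA and RnrL) and 3 lower genes (stg, mip130 and E2f1) of 34, where the shares over all tested genes were 7.13% higher and 9.85% lower. The DESeq2 Wald test called Orc5 (adjusted p = 0.00129) and stg (adjusted p = 0.0474), where it called 1.57% of tested genes higher and 1.76% lower. CPM did not overlap between the groups for 3 higher and 5 lower genes of 34, against 15.8% and 13.9% of all tested genes.

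In DPLG4 mutants against control flies the count by edgeR was again 0 of 34, where 36 genes passed in all (0.427%), and the smallest adjusted p of the set was 0.463, for Myb. At an unadjusted p under 0.05 there were 0 higher and 1 lower gene, Myb, beside shares of 7.32% and 3.45% over all tested genes. DESeq2 called none of the 34, where it called 1.85% of tested genes higher and 0.854% lower. CPM did not overlap for PCNA, which was higher, and for Mcm10 and Myb, which were lower, against 9.48% higher and 6.79% lower over all tested genes. These counts are near the background of each comparison, and both comparisons use the same 3 control libraries.

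Positive log2 fold changes were found for 13 of 34 genes in DPLG1 mutants, where 51.6% of all tested genes were positive, and for 12 of 34 in DPLG4 mutants, where 48.9% were. The median over the 34 was -0.053 in DPLG1 mutants and -0.10 in DPLG4 mutants against control flies, beside medians over all tested genes of 0.014 and -0.0072. The median of the set less that of all tested genes was -0.067 in DPLG1 mutants and -0.096 in DPLG4 mutants. With each library's trend on exon length removed this gap was -0.032 and -0.051. Without DPLG4 mutant library 15 the gap in DPLG4 mutants was -0.0068 (median of the set -0.031), and without DPLG4 mutant library 7 it was -0.171. Without control library 1 the gap was -0.126 in DPLG1 mutants and -0.172 in DPLG4 mutants, and in DPLG1 mutants it was -0.112 without their library 5 and -0.107 without their library 7. Upper quartile scaling, which shifts all genes of a library alike, moved the median of all tested genes to 0.154 in DPLG1 mutants and 0.088 in DPLG4 mutants, and that of the set to 0.081 and -0.011. The standard error of a log2 fold change in DPLG1 mutants ran from 0.083 for Orc5 to 0.34 for mip130, which bounds the differences that 3 libraries per group could show.

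**Figure D2:**
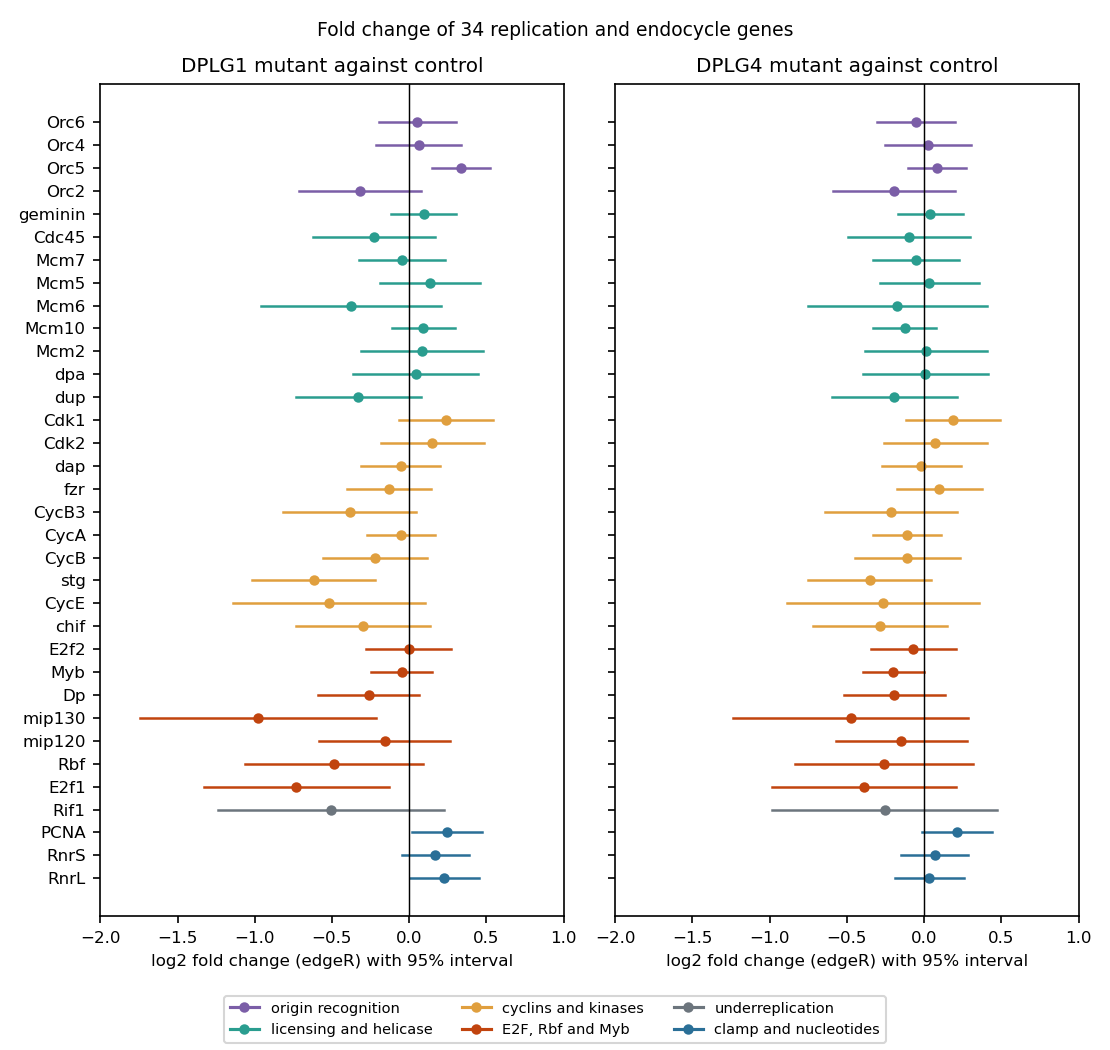
Log2 fold change (edgeR) of each of the 34 tested genes with its 95% interval, in DPLG1 mutants against control flies on the left and in DPLG4 mutants against control flies on the right, grouped by role and ordered by exon length within a role. The interval lies clear of 0 for Orc5, PCNA, RnrL, stg, mip130 and E2f1 on the left and for Myb on the right, with no adjusted p under 0.05.

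Among the tested subunits of the origin recognition complex, Orc5 alone did not overlap between DPLG1 mutants and control flies. Orc5 (FBgn0015271; BDGP6.54 chromosome arm 2L, 13829837 to 13831576, plus strand) had 87.6, 92.1 and 89.9 CPM in DPLG1 mutants, 76.8, 78.0 and 72.1 CPM in DPLG4 mutants and 68.7, 73.9 and 71.3 CPM in control flies. All 3 DPLG1 mutant libraries were above every other library, while DPLG4 mutants and control flies overlapped. Its log2 fold change was 0.33 ± 0.083 (SE) in DPLG1 mutants against control flies, with a 95% interval of 0.15 to 0.52 and an edgeR adjusted p of 0.240. In DPLG4 mutants against control flies it was 0.085 ± 0.083, with an interval of -0.10 to 0.27. The value of Orc5 in DPLG1 mutants was 0.28 to 0.48 over 17 alternative settings, all positive, with adjusted p between 0.00129 and 0.654.

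The other tested subunits, Orc2, Orc4 and Orc6, bind the same DNA as parts of one complex with Orc5. Orc4 averaged 70.1 ± 6.90 CPM in DPLG1 mutants, 68.4 ± 7.33 in DPLG4 mutants and 67.2 ± 5.85 in control flies. Orc6 averaged 64.7 ± 3.94, 60.2 ± 5.90 and 62.4 ± 5.39 CPM in DPLG1 mutants, DPLG4 mutants and control flies. Both differed between groups by less than the spread between libraries. Orc2 averaged 97.1 ± 14.9, 106 ± 12.6 and 121 ± 23.1 CPM in the same groups, with a log2 fold change of -0.32 in DPLG1 mutants (interval -0.71 to 0.079) and -0.20 in DPLG4 mutants (interval -0.59 to 0.20).

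Of the 9 licensing and helicase genes none had an unadjusted edgeR p under 0.05 against control flies, and 5 had positive log2 fold changes in DPLG1 mutants and 4 in DPLG4 mutants (medians 0.042 and -0.054). The Mcm2-7 helicase was represented by Mcm2, dpa, Mcm5, Mcm6 and Mcm7, with medians of 0.042 in DPLG1 mutants and 0.0071 in DPLG4 mutants. Mcm5 had 381, 439 and 420 CPM in DPLG1 mutants, 326, 402 and 427 CPM in DPLG4 mutants and 311, 404 and 413 CPM in control flies. Mcm6 had 135, 229 and 201 CPM in DPLG1 mutants, 160, 211 and 278 CPM in DPLG4 mutants and 198, 238 and 297 CPM in control flies. Groups overlapped for both, and Mcm6 had the most negative value of the 5 (-0.38 in DPLG1 mutants, interval -0.96 to 0.20).

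Mcm10, which acts when the loaded helicase is switched on, was the gene of this role with the clearest contrast between the mutants. Mcm10 (FBgn0032929; arm 2L, 21179933 to 21182812, plus strand) had 252, 235 and 241 CPM in DPLG1 mutants, 188, 220 and 219 CPM in DPLG4 mutants and 235, 227 and 222 CPM in control flies. The DPLG4 mutant libraries all lay below the other 6 libraries, with library 15 lowest. Its log2 fold change was 0.091 ± 0.090 in DPLG1 mutants and -0.13 ± 0.090 in DPLG4 mutants against control flies (edgeR adjusted p = 0.570 and 0.623).

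The helicase partner Cdc45 averaged 206 ± 41.7 CPM in DPLG1 mutants, 226 ± 37.2 in DPLG4 mutants and 242 ± 21.6 in control flies. The loader dup, which is Cdt1, averaged 337 ± 44.8 CPM in DPLG1 mutants, 371 ± 74.0 in DPLG4 mutants and 424 ± 68.4 in control flies. Its inhibitor geminin had 404, 386 and 373 CPM in DPLG1 mutants, 409, 368 and 345 CPM in DPLG4 mutants and 390, 352 and 348 CPM in control flies. The mean of dup was below that of control flies and the mean of geminin above it in both mutants, each by less than the range of the libraries. In DPLG1 mutants geminin had a log2 fold change of 0.093 (interval -0.12 to 0.31) and dup of -0.33 (interval -0.74 to 0.076). With each library's trend on exon length removed, both were negative in both mutants. Then geminin was at -0.032 in DPLG1 mutants and -0.066 in DPLG4 mutants, and dup at -0.18 and -0.083.

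Among the 10 cyclin, kinase and cell cycle switch genes, stg was the one gene with an unadjusted p under 0.05, and 8 of 10 had negative log2 fold changes in DPLG1 mutants and 7 of 10 in DPLG4 mutants (medians -0.18 and -0.11). Over the 17 alternatives the number of negative values ran from 5 to 8 in each comparison. The phosphatase stg (FBgn0003525; arm 3R, 29251826 to 29255800, minus strand), which activates Cdk1 for mitosis, had 353, 450 and 454 CPM in DPLG1 mutants, 389, 511 and 610 CPM in DPLG4 mutants and 583, 623 and 723 CPM in control flies. Every DPLG1 mutant library was below every control library, while DPLG4 mutant library 7 lay among the controls. In log2 terms stg was at -0.62 ± 0.18 in DPLG1 mutants (interval -1.02 to -0.22, edgeR adjusted p = 0.269), which is 1.53-fold lower. In DPLG4 mutants it was -0.35 ± 0.17 (interval -0.75 to 0.044, edgeR adjusted p = 0.519), or 1.28-fold lower. Over the alternatives stg in DPLG1 mutants ran from -0.68 to -0.48, with adjusted p between 0.0474 and 0.684.

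The endocycle driver CycE averaged 313 ± 68.5 CPM in DPLG1 mutants, 374 ± 116 in DPLG4 mutants and 450 ± 113 in control flies, and its groups overlapped. Cdk2, its kinase partner, averaged 314 ± 18.3, 297 ± 39.2 and 283 ± 52.6 CPM in DPLG1 mutants, DPLG4 mutants and control flies. The inhibitor of that pair, dap, averaged 186 ± 2.94, 191 ± 5.45 and 193 ± 29.4 CPM. Cyclin E and its kinase thus had mean values on opposite sides of the controls, and dap was the closest of the 3 to the control mean. The log2 fold change of CycE was -0.52 in DPLG1 mutants (interval -1.14 to 0.10) and -0.27 in DPLG4 mutants (interval -0.89 to 0.36).

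The mitotic kinase Cdk1 had 438, 364 and 404 CPM in DPLG1 mutants, 458, 372 and 334 CPM in DPLG4 mutants and 372, 341 and 310 CPM in control flies. CycA had 1731, 1964 and 1982 CPM in DPLG1 mutants, 1713, 1839 and 1900 CPM in DPLG4 mutants and 1798, 2079 and 2009 CPM in control flies. CycB had 3561, 4633 and 4281 CPM in DPLG1 mutants, 3936, 4577 and 4962 CPM in DPLG4 mutants and 4071, 5109 and 5352 CPM in control flies. All 3 overlapped between groups, with intervals of the log2 fold change that held 0: -0.069 to 0.54 for Cdk1, -0.27 to 0.17 for CycA and -0.56 to 0.12 for CycB in DPLG1 mutants. The third mitotic cyclin, CycB3, had -0.39 in DPLG1 mutants (interval -0.82 to 0.044) and -0.21 in DPLG4 mutants (interval -0.64 to 0.22).

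The endocycle switch gene fzr had 48.4, 58.6 and 57.5 CPM in DPLG1 mutants, 58.2, 70.3 and 64.1 CPM in DPLG4 mutants and 66.4, 56.4 and 57.2 CPM in control flies. Its groups overlapped in both comparisons. The gene chiffon (chif) encodes the Dbf4-like activator of the Cdc7 kinase and is required for chorion amplification. It had 273, 303 and 313 CPM in DPLG1 mutants, 219, 322 and 357 CPM in DPLG4 mutants and 292, 396 and 406 CPM in control flies, with control library 1 inside the range of the mutants. Its log2 fold change was -0.30 in DPLG1 mutants (interval -0.73 to 0.13) and -0.28 in DPLG4 mutants (interval -0.72 to 0.15).

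The 7 genes of the E2F, Rbf and Myb complexes all had negative log2 fold changes in both mutants, with medians of -0.26 in DPLG1 mutants and -0.20 in DPLG4 mutants, and none passed the adjusted edgeR test. Over all tested genes 48.4% and 51.1% were negative. Under upper quartile scaling the negative values numbered 5 of 7 in DPLG1 mutants and 6 of 7 in DPLG4 mutants, and over the other alternatives 5 to 7 and 6 to 7. E2f1 (FBgn0011766; arm 3R, 21620304 to 21660871, minus strand), the activating E2F that turns on S phase genes, had 117, 161 and 153 CPM in DPLG1 mutants, 127, 174 and 244 CPM in DPLG4 mutants and 177, 242 and 296 CPM in control flies. The highest DPLG1 mutant library was below the lowest control, and DPLG4 mutants overlapped the controls. Its log2 fold change was -0.73 ± 0.26 in DPLG1 mutants (interval -1.33 to -0.13, edgeR adjusted p = 0.276) and -0.39 ± 0.26 in DPLG4 mutants (interval -0.99 to 0.20). Over the alternatives E2f1 in DPLG1 mutants ran from -0.89, without control library 1, to -0.33, with the exon length trend removed.

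The largest difference of the set was that of mip130 (FBgn0023509; arm X, 1908239 to 1920318, plus strand), which had 25.9, 41.7 and 42.9 CPM in DPLG1 mutants, 35.4, 44.5 and 76.7 CPM in DPLG4 mutants and 52.1, 69.4 and 96.3 CPM in control flies. DPLG1 mutants were 1.97-fold lower without overlap, with a log2 fold change of -0.98 ± 0.34 (interval -1.75 to -0.21, edgeR adjusted p = 0.276), and the 3 control libraries differed among themselves by nearly as much. Over the alternatives this value ran from -1.15 without control library 1 to -0.73 without control library 3. In DPLG4 mutants the log2 fold change was -0.48 ± 0.33 (interval -1.24 to 0.28). On its own strand mip130 overlaps Rbcn-3B, which had a log2 fold change of -0.55 in DPLG1 mutants against control flies.

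Myb (FBgn0002914, arm X, 15854832 to 15857823, minus strand) is a DNA binding subunit of the complex that acts at the chorion origins. It had 232, 227 and 220 CPM in DPLG1 mutants and 184, 215 and 213 CPM in DPLG4 mutants. Control flies had 233, 233 and 237 CPM. The control libraries lay within 5 CPM of each other, above all 6 mutant libraries. The log2 fold change of Myb was -0.20 ± 0.088 in DPLG4 mutants (interval -0.40 to -0.00098, edgeR adjusted p = 0.463) and -0.049 ± 0.088 in DPLG1 mutants. In the annotation used here all but 25 of the 2928 exon bases of Myb are shared with CG46440 on the same strand. That gene was not among the identifiers of the count files. The counted neighbour of Myb, CG15914, lies on the other strand.

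Dp, the partner of both E2F proteins, averaged 225 ± 26.5 CPM in DPLG1 mutants, 236 ± 41.8 in DPLG4 mutants and 270 ± 9.38 in control flies. Rbf, the retinoblastoma protein that holds E2f1 in check, averaged 195 ± 41.8, 228 ± 65.5 and 274 ± 62.2 CPM in DPLG1 mutants, DPLG4 mutants and control flies. Dp did not overlap between DPLG1 mutants and control flies, while Rbf did. The repressor E2f2 averaged 249 ± 8.80 CPM in DPLG1 mutants, 238 ± 21.7 in DPLG4 mutants and 250 ± 37.6 in control flies, and the Myb complex subunit mip120 averaged 127 ± 16.9, 128 ± 30.0 and 142 ± 15.5 CPM in the same groups. The E2f2 interval in DPLG1 mutants ran from -0.28 to 0.27, and E2f2 was the gene of this role nearest to 0 there. For underreplication Rif1, the partner of SuUR in slowing forks in polyploid cells, had 74.0, 132 and 121 CPM in DPLG1 mutants, 83.9, 126 and 178 CPM in DPLG4 mutants and 111, 158 and 194 CPM in control flies. Its groups overlapped, with a log2 fold change of -0.50 in DPLG1 mutants (interval -1.24 to 0.23) and -0.26 in DPLG4 mutants (interval -0.99 to 0.47).

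The sliding clamp gene and the ribonucleotide reductase genes had positive log2 fold changes in both mutants, 3 of 3 in each, with medians of 0.23 in DPLG1 mutants and 0.068 in DPLG4 mutants; without DPLG4 mutant library 3 the count in DPLG4 mutants was 2 of 3. PCNA (FBgn0005655; arm 2R, 20261754 to 20262883, minus strand), the clamp of the replicative polymerases and a classical E2F target, had 588, 558 and 546 CPM in DPLG1 mutants, 625, 533 and 497 CPM in DPLG4 mutants and 485, 484 and 458 CPM in control flies. All 6 mutant libraries were above all 3 controls. The log2 fold change of PCNA was 0.24 ± 0.099 in DPLG1 mutants (interval 0.020 to 0.47, edgeR adjusted p = 0.283), or 1.18-fold, and 0.21 ± 0.099 in DPLG4 mutants (interval -0.011 to 0.44, edgeR adjusted p = 0.488). Over the alternatives PCNA in DPLG1 mutants ran from 0.12, with the exon length trend removed, to 0.39 under upper quartile scaling.

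RnrL (FBgn0011703; arm 2L, 10325026 to 10327943, minus strand), the large subunit of ribonucleotide reductase, had 731, 795 and 762 CPM in DPLG1 mutants, 590, 725 and 686 CPM in DPLG4 mutants and 616, 692 and 648 CPM in control flies. The DPLG1 mutant libraries were the 3 highest of all 9. Its log2 fold change was 0.23 ± 0.099 in DPLG1 mutants (interval 0.0021 to 0.45, edgeR adjusted p = 0.293) and 0.034 ± 0.099 in DPLG4 mutants. In DPLG1 mutants RnrL ran from 0.20 to 0.37 over the alternatives, the highest under upper quartile scaling. The small subunit RnrS had 864, 841 and 887 CPM in DPLG1 mutants, 839, 838 and 738 CPM in DPLG4 mutants and 846, 747 and 711 CPM in control flies. Control library 1 lay among the DPLG1 mutants, and the interval of RnrS in DPLG1 mutants ran from -0.047 to 0.39.

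**Figure D3:**
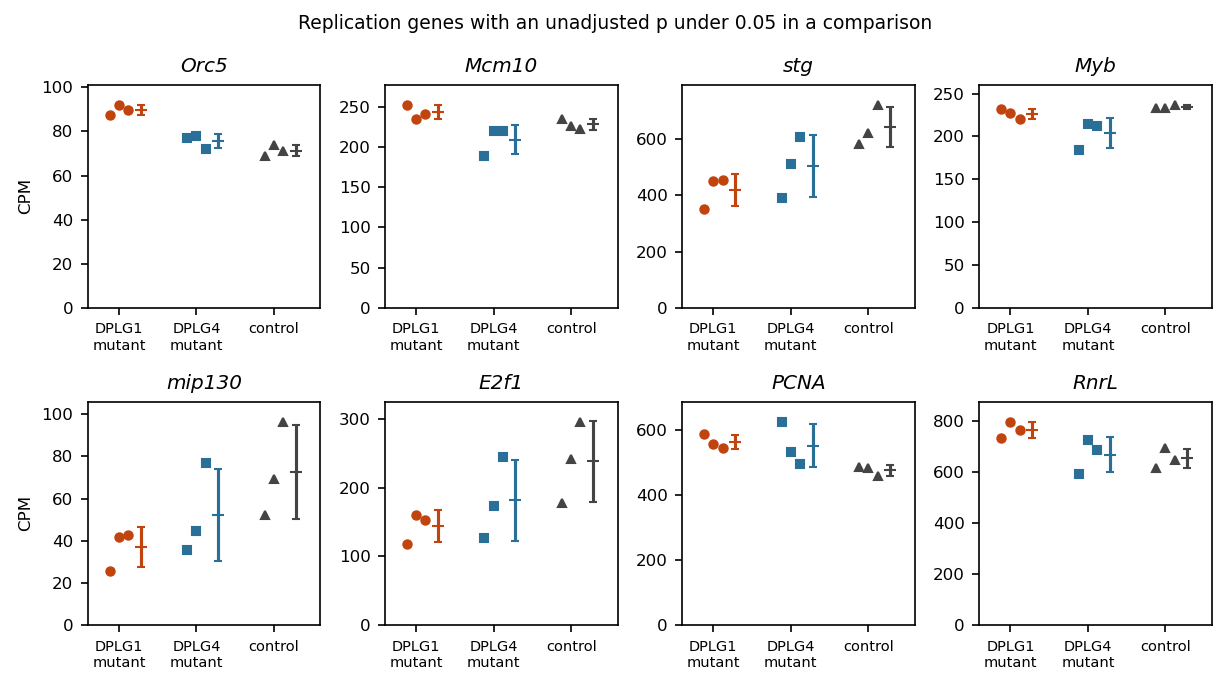
CPM in each library of the 8 genes with an unadjusted edgeR p under 0.05 in at least 1 comparison, for DPLG1 mutants, DPLG4 mutants and control flies from left to right, each panel with its own axis from 0; the bar beside the points is the mean with SD (n = 3). DPLG1 mutants stand clear of control flies for Orc5, stg, E2f1, mip130, PCNA and RnrL, and lie just below them for Myb. The control points of E2f1 and mip130 are widely spread.

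Between the mutants directly, edgeR called none of the 34 genes, where it called 53 of all tested genes (0.629%), and the smallest adjusted p was 0.409. At an unadjusted p under 0.05 there were 2 higher genes, Orc5 and Mcm10, and 0 lower, beside shares of 3.65% and 3.89% over all tested genes. DPLG1 mutants exceeded DPLG4 mutants by 0.25 ± 0.082 on the log2 scale for Orc5 (interval 0.062 to 0.44) and by 0.22 ± 0.090 for Mcm10 (interval 0.012 to 0.42; edgeR adjusted p = 0.605). DESeq2 called Orc5 alone (adjusted p = 0.0204), where it called 1.38% of tested genes higher and 1.35% lower. CPM did not overlap for 5 genes, Orc5, Mcm10, Myb, RnrL and RnrS, all higher in DPLG1 mutants, against 9.04% of all tested genes higher and 6.46% lower. Positive log2 fold changes numbered 17 of 34, where 43.6% of all tested genes were positive and 56.4% negative, and the median over the set was -0.0016 beside -0.035 over all tested genes; without DPLG4 mutant library 15 these were -0.080 and 0.0064.

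Ratios within a library were computed per kilobase of exon for 11 pairs of partners chosen after their values were seen, and carry no test. In 3 of the 11 (stg to fzr, CycB3 to CycA and Mcm6 to Mcm5) every DPLG1 mutant library was below every control. Of single tested genes 13.9% were lower without overlap in that comparison. No such share was computed over pairs of genes, so the count of pairs is a description only. The ratio of stg to fzr was 6.64, 6.99 and 7.2 in DPLG1 mutants, 6.09, 6.62 and 8.66 in DPLG4 mutants and 7.99, 10.1 and 11.5 in control flies. The ratio of dup to geminin was 0.241, 0.329 and 0.315 in DPLG1 mutants, 0.243, 0.346 and 0.434 in DPLG4 mutants and 0.307, 0.410 and 0.476 in control flies. Groups overlapped for dup to geminin, which have 3138 and 1061 exon bases. CycB3 to CycA was 0.220, 0.270 and 0.253 in DPLG1 mutants, 0.242, 0.289 and 0.339 in DPLG4 mutants and 0.293, 0.297 and 0.348 in control flies. Mcm6 to Mcm5 was 0.311, 0.458 and 0.420 in DPLG1 mutants, 0.432, 0.462 and 0.572 in DPLG4 mutants and 0.558, 0.517 and 0.632 in control flies. DPLG4 mutants overlapped the controls in both. E2f1 to E2f2 was 0.141, 0.201 and 0.197 in DPLG1 mutants, 0.150, 0.234 and 0.344 in DPLG4 mutants and 0.187, 0.329 and 0.403 in control flies, with wide ranges in DPLG4 mutants and control flies. Groups also overlapped for Mcm2 to Mcm5, which averaged 0.604 ± 0.037 in DPLG1 mutants, 0.617 ± 0.024 in DPLG4 mutants and 0.626 ± 0.017 in control flies, and for RnrL to RnrS, which averaged 0.546 ± 0.033, 0.515 ± 0.072 and 0.528 ± 0.068 in the same groups.

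Exon length moved with these results. The 34 genes had a median exon length of 2805 bases, against 2056.5 bases over all tested genes, and the E2F, Rbf and Myb genes one of 3459 bases. Across the 34 genes, Spearman's rho between log2 fold change and exon length was -0.73 in DPLG1 mutants and -0.77 in DPLG4 mutants against control flies, and -0.56 between the mutants. Across 8248 tested genes with a length it was -0.41, -0.41 and -0.18. These values are across genes that share the same libraries and are given as a description. Of the 12 genes of the set with 3000 bases or more, 11 had negative log2 fold changes in each mutant, with medians of -0.41 in DPLG1 mutants and -0.26 in DPLG4 mutants; among all 2617 tested genes of that length 72.8% and 74.0% were negative. Of the 8 genes under 2000 bases, 7 were positive in DPLG1 mutants and 6 in DPLG4 mutants, where 69.6% and 67.9% of 3983 such tested genes were.

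The same order ran through single libraries. Relative to each gene's mean over the 9 libraries, the 12 long genes had a median log2 deviation of -0.45, 0.025 and -0.080 in DPLG1 mutants, -0.46, 0.022 and 0.25 in DPLG4 mutants and -0.087, 0.29 and 0.45 in control flies. The 8 short genes had 0.13, 0.049 and 0.082 in DPLG1 mutants, 0.055, -0.0080 and -0.12 in DPLG4 mutants and -0.065, -0.087 and -0.12 in control flies. DPLG1 mutant library 22 and DPLG4 mutant library 15 were thus lowest for the long genes, and DPLG4 mutant library 7 was close to control libraries 2 and 3. Over all tested genes the rho of a library's deviations with exon length ran from -0.40 to -0.048 in DPLG1 mutants, from -0.50 to 0.43 in DPLG4 mutants and from -0.21 to 0.60 in control flies.

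With each library's trend on exon length removed, no gene of the set passed the adjusted edgeR test in any comparison, and the smallest adjusted p was 0.105, for stg. In DPLG1 mutants against control flies stg was then at -0.48 ± 0.10, mip130 at -0.79 ± 0.23 and E2f1 at -0.33 ± 0.095. Orc5 was at 0.28 ± 0.063 and RnrL at 0.30 ± 0.074, while PCNA was at 0.12 ± 0.070. The sign of stg, mip130, E2f1, Orc5, RnrL and PCNA was kept, whereas chif, the longest gene of the set, was at 0.15 ± 0.090 in place of -0.30. The sign also changed for Orc4, Orc6, geminin, CycA, dap, mip120 and Myb, which then ran from -0.078 for Orc6 to 0.072 for Myb. The E2F, Rbf and Myb genes then had 5 of 7 negative values in DPLG1 mutants (median -0.12) and 7 of 7 in DPLG4 mutants (median -0.10). The part of exon length in the values of single genes was not tested beyond this.

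**Figure D4:**
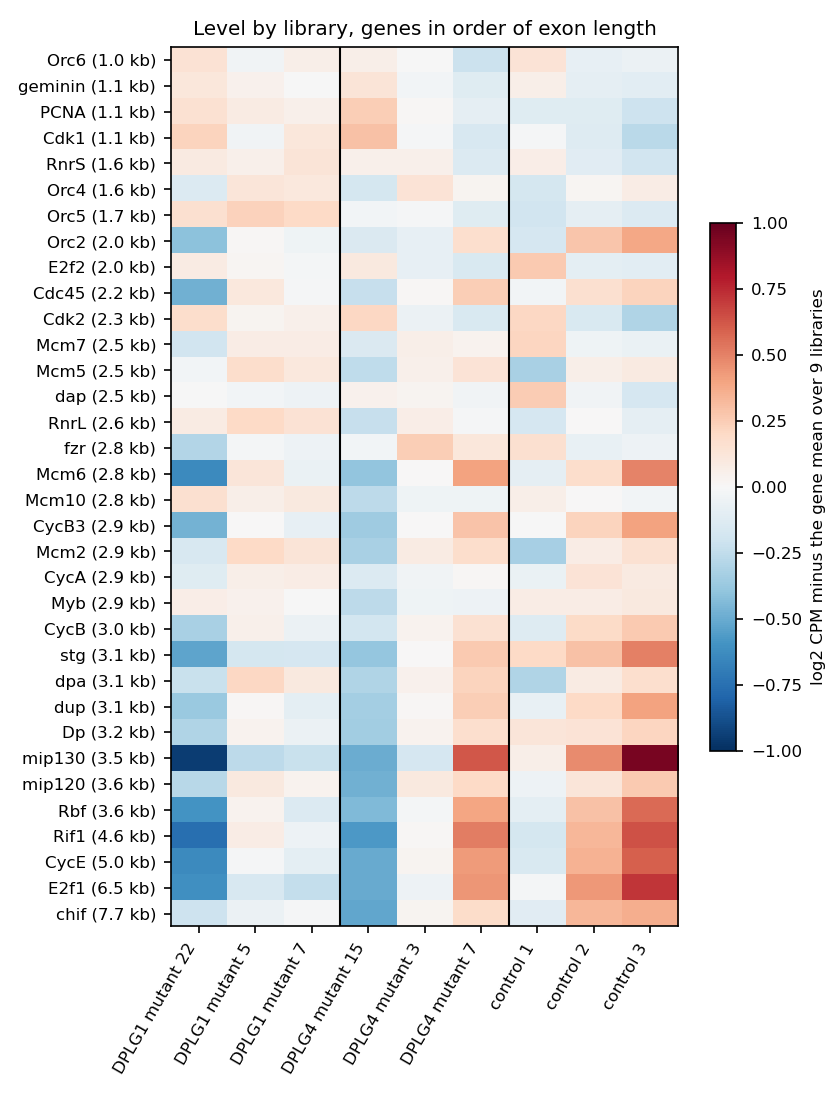
Colour gives log2 CPM minus the gene's mean over the 9 libraries for each of the 34 genes (rows, shortest exon length at the top, length in kb beside the name) in 3 DPLG1 mutant, 3 DPLG4 mutant and 3 control libraries (columns). Towards the bottom DPLG1 mutant 22 and DPLG4 mutant 15 are blue (low), and DPLG4 mutant 7, control 2 and control 3 are red (high); the median deviation of the 12 longest genes is -0.45 in DPLG1 mutant 22 and 0.45 in control 3.

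**Figure D5:**
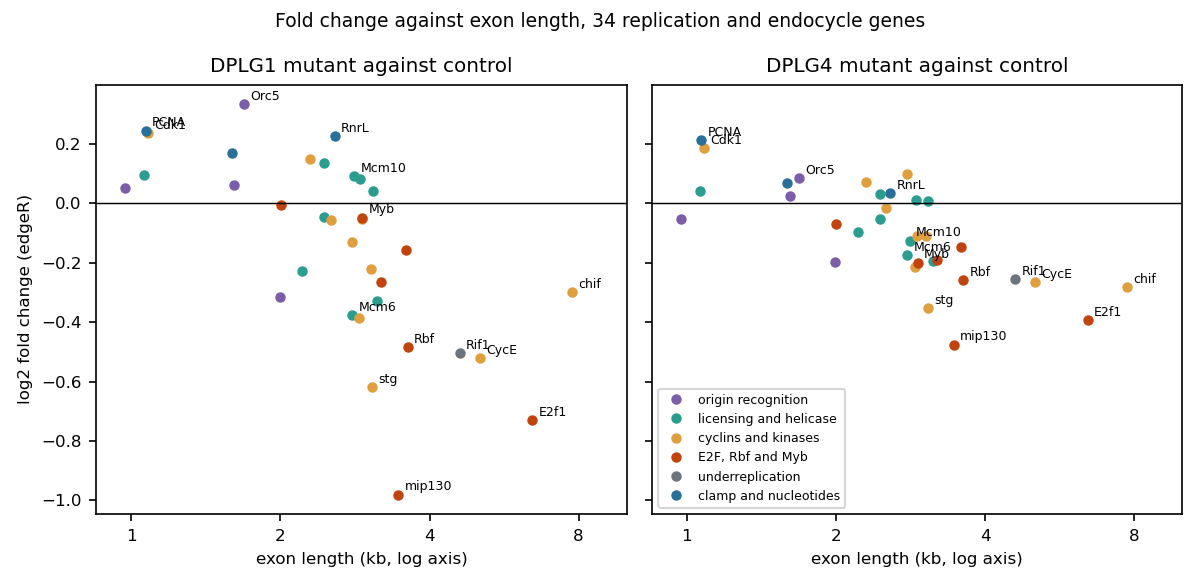
Log2 fold change (edgeR) against exon length in kb (log axis) for the 34 genes, in DPLG1 mutants against control flies on the left and DPLG4 mutants against control flies on the right, coloured by role. Points run downwards with length, with rho of -0.73 on the left and -0.77 on the right; stg and mip130 on the left lie below other genes of their length.

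By position, the 6 tested genes on the X chromosome (Mcm6, Cdc45, fzr, Rbf, mip130 and Myb) had 0 positive log2 fold changes in DPLG1 mutants and 1 in DPLG4 mutants, with medians of -0.30 and -0.19. Among all 1468 tested genes on the X, 40.1% were positive in DPLG1 mutants and 44.8% in DPLG4 mutants. The 7 on arm 2L, which also carries CG12253, had 4 positive values in DPLG1 mutants and 3 in DPLG4 mutants. Of 1450 tested genes on that arm 55.6% and 51.4% were positive. Start positions relative to that of CG12253 were -0.60 megabases for Cdk1, -0.66 for RnrL, 2.84 for Orc5, 4.74 for CycE and 5.35 for chif. E2f2 and Mcm10 were each at 10.2 megabases. The 2 tested genes on arm 3L, which also carries CG7492, had 0 positive values in each mutant. Of 1572 tested genes on that arm 53.6% were positive in DPLG1 mutants and 47.7% in DPLG4 mutants. Start positions relative to that of CG7492 were 1.24 megabases for Mcm7 and 4.17 for CycA. The genetic background of the mutants is not stated, and the part of linked background in these values was not tested.

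A wider list of 73 other replication genes, of which 72 were tested, was read in the same fit. None passed edgeR at an adjusted p under 0.05 in any comparison. At an unadjusted p under 0.05 there were 4 higher and 4 lower genes in DPLG1 mutants and 3 higher and 2 lower in DPLG4 mutants against control flies, and 5 higher and 1 lower between the mutants. Over all tested genes the shares higher and lower were 7.13% and 9.85% in DPLG1 mutants, 7.32% and 3.45% in DPLG4 mutants, and 3.65% and 3.89% between the mutants. DESeq2 called Psf1 (adjusted p = 0.0199) and RPA1 (adjusted p = 0.0481) in DPLG1 mutants, none in DPLG4 mutants, and mus304 (adjusted p = 0.0139) and polo (adjusted p = 0.0278) between the mutants. Over all tested genes DESeq2 called 1.57% higher and 1.76% lower in DPLG1 mutants, 1.85% and 0.854% in DPLG4 mutants, and 1.38% and 1.35% between the mutants. The median log2 fold change of the 72 was 0.029 in DPLG1 mutants and -0.049 in DPLG4 mutants against control flies.

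Among 23 proteins of the fork, Psf1, a subunit of the GINS complex that activates the helicase with Cdc45, had 32.2, 30.8 and 31.3 CPM in DPLG1 mutants, 30.0, 25.3 and 24.0 CPM in DPLG4 mutants and 24.3, 24.3 and 23.1 CPM in control flies. RPA1, which coats single-stranded DNA, had 640, 619 and 605 CPM in DPLG1 mutants, 577, 559 and 542 CPM in DPLG4 mutants and 506, 563 and 534 CPM in control flies. Every DPLG1 mutant library was above every control for both. In log2 terms Psf1 differed by 0.39 ± 0.11 in DPLG1 mutants (edgeR adjusted p = 0.253) and RPA1 by 0.22 ± 0.078 (edgeR adjusted p = 0.276). The chromatin assembly subunit Caf1-180, with 4043 exon bases, was at -0.97 ± 0.36 in DPLG1 mutants (edgeR adjusted p = 0.276). In DPLG4 mutants the smallest p values of this list were those of the checkpoint adaptor Claspin (-0.37), the clamp loader subunit RfC3 (0.29) and Caf1-105 (-0.24).

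Of the 27 other licensing and kinase genes, CycD (-0.30) and Cdc7 (-0.42) had unadjusted p under 0.05 in DPLG1 mutants, and Cul4 (0.20) came next. Cdc7 encodes the kinase that chif activates; it had 142, 175 and 170 CPM in DPLG1 mutants, 130, 171 and 200 CPM in DPLG4 mutants and 225, 203 and 225 CPM in control flies. All 6 mutant libraries were below the 3 controls, with a log2 fold change of -0.42 ± 0.16 in DPLG1 mutants (edgeR adjusted p = 0.277) and -0.38 ± 0.16 in DPLG4 mutants (edgeR adjusted p = 0.446). CycD (-0.24) and pic (-0.18) followed in DPLG4 mutants. Among 10 polymerase and primase subunits, Prim1 was at 0.33, PolE2 at 0.24 and PolA1 at -0.24 in DPLG1 mutants, and PolA1 at -0.36, Prim1 at 0.15 and PolD1 at -0.16 in DPLG4 mutants. The repressor l(3)mbt, with 5398 exon bases, was at -1.0 in DPLG1 mutants and -0.49 in DPLG4 mutants, beside mip40 at 0.13 and 0.14, Rbf2 at -0.22 in DPLG1 mutants and HDAC1 at -0.18 in DPLG4 mutants.

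Of 7 tested genes of nucleotide metabolism, 3 had unadjusted p under 0.05 in DPLG4 mutants, all higher, and none in DPLG1 mutants; of all tested genes 7.32% were higher at that p in DPLG4 mutants and 7.13% in DPLG1 mutants. The nucleoside diphosphate kinase gene awd had 1878, 1617 and 1663 CPM in DPLG1 mutants, 2385, 1822 and 1648 CPM in DPLG4 mutants and 1356, 1482 and 1405 CPM in control flies. All 6 mutant libraries were above the 3 controls, with log2 fold changes of 0.28 ± 0.14 in DPLG1 mutants (edgeR adjusted p = 0.316) and 0.46 ± 0.14 in DPLG4 mutants (edgeR adjusted p = 0.306). Thymidylate synthase (Ts) was at 0.31 ± 0.12 in DPLG4 mutants, and su(r), which breaks down pyrimidines and was under 1.5 CPM in every library, at 1.23 ± 0.43. In DPLG1 mutants the genes with the next smallest p after awd were r (-0.32) and r-l (-0.17), both of pyrimidine synthesis.

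A list of 12 chorion and eggshell genes, which includes genes of the amplified chorion clusters, summed to 1128 to 2093 CPM in DPLG1 mutants. The sum was 1469 to 2523 CPM in DPLG4 mutants and 336 to 836 CPM in control flies. All 12 had positive log2 fold changes in both mutants, with medians of 1.55 and 1.46, and none passed the adjusted edgeR test, while the unadjusted p was under 0.05 for 8 and 9 of them, and the DESeq2 count was 5 in each mutant. Of all tested genes, 7.13% in DPLG1 mutants and 7.32% in DPLG4 mutants were higher at that p, and DESeq2 called 1.57% and 1.85% higher. The 8 vitelline membrane genes, which follicle cells express before the chorion genes, summed to 324 to 580 CPM in DPLG1 mutants, 637 to 798 CPM in DPLG4 mutants and 423 to 573 CPM in control flies, with median log2 fold changes of -0.25 in DPLG1 mutants (1 of 8 positive) and 0.82 in DPLG4 mutants (8 of 8 positive). Beside them the amplification factors chif, dup, E2f1, Rbf and Myb had the values given above, with no adjusted edgeR p under 0.05. DNA copy number was not measured in these libraries, and the part of the stage composition of the ovaries in these sums was not tested.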

How the data were processed

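Each library's file, as deposited by the authors, holds raw gene counts; per the submitters' processing notes FastQC, STAR 2.5, HTSeq and DESeq2 were used, and the builds named are BDGP6 and GRCh37. The sources used here do not say what the human build was for, which annotation was counted or whether strand was used. Summary lines (11.5% to 13.8% of the total in 8 libraries, 72.0% in control library 1) were left out of library sizes and tests. Names, positions and exon lengths came from Ensembl release 115 of build BDGP6.54, which placed 17253 of 17559 identifiers.

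The test used edgeR 4.0.16 with limma 3.58.1 (R 4.3.3): filterByExpr by group, TMM scaling, a quasi-likelihood fit with group as the only term to all 9 libraries (biological coefficient of variation 0.217), and Benjamini-Hochberg adjustment over 8427 genes, called at an adjusted p under 0.05. CPM use TMM library sizes. Intervals are 95% intervals of the log2 fold change. All tests were two-sided. The fit was also run on simulated counts, which held no trend on exon length, so that run cannot speak to such a trend. What separates the replicates of a group beyond the word biological is not given, so p-values measure the spread between these libraries. Replicates correlated at 0.974 to 0.992.

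The genes, their roles, the wider lists and the tests were chosen with earlier results of these data known. Per-library values are given for genes of the set with an unadjusted p under 0.05 in any comparison and for the 6 highest and 3 lowest tested levels per kb in control flies, and for other genes chosen after their values were seen. From each wider list the 3 genes with the smallest p in each mutant are named, some with per-library values. Alternatives were other scalings and filters, DESeq2 1.42.0, a fit to 6 libraries, library sizes that leave out eggshell and yolk genes, removal of each library's loess trend on exon length, and leaving out each library.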

Additional observations from a re-analysis of the deposited data

How the results depend on the processing

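None of the alternatives run with edgeR called any of the 34 genes in any comparison, and DESeq2 called 2 in DPLG1 mutants against control flies and 1 between the mutants. The genes called in all numbered 9 in DPLG1 mutants against control flies, with 280 by DESeq2, 19 with the exon length trend removed and 6 to 16 when a library was left out. They numbered 36 in DPLG4 mutants against control flies, with 228 by DESeq2, 12 in the fit to 6 libraries, 57 with the length trend removed and 11 to 36 when a library was left out. Between the mutants they numbered 53, with 230, 29, 94 and 24 to 51 under the same settings. At an unadjusted p under 0.05 the set had 6 genes in DPLG1 mutants, with 2 to 11 when a library was left out: 2 without DPLG1 mutant library 22 or control library 3, and 11 without control library 1. In DPLG4 mutants it had 1, with 0 under upper quartile scaling, both other filters and the 6-library fit, 2 by DESeq2 and with the length trend removed, and 0 to 4 when a library was left out, 4 without DPLG4 mutant library 7. Between the mutants it had 2, with 1 under DESeq2-style size factors, without a filter and in the 6-library fit, 4 with the length trend removed, and 1 to 3 when a library was left out. Upper quartile scaling moved the median of the set in DPLG1 mutants to 0.081. With the length trend removed r was at 0.13 and PolA1 at 0.045 in DPLG1 mutants, on the other side of 0. The cause of these shifts was not tested, apart from fewer libraries in the smaller fits. No paired analysis was possible because the groups compared share at most 1 replicate number. With 3 libraries per group an exact permutation test of a single value cannot go below p = 0.1, and intervals cover only the spread between these libraries. Levels of genes that share exons depend on how the authors' counting treated reads in more than 1 gene.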
